A study of Mus musculus with 4 samples.

Results

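The phagocyte NADPH oxidase genes Cybb, Cyba, Ncf1 and Ncf4, together with the small GTPase gene Rac2, were followed in stimulated mouse CD4 T cells with and without the microRNA miR-146a. Members were all probe sets whose only gene symbol in the platform annotation is one of these 5 names. This gave 10 probe sets of 45037, and 5 genes of 18193. The 4 samples were naive CD4 T cells of 2D2 Tg mice, whose T cells bear a transgenic receptor for a myelin peptide. They had been sorted and then kept for 3 days in wells coated with anti-CD3 at 5 µg/ml, with soluble anti-CD28 at 1 µg/ml. Of the samples, 2 were wildtype and 2 were miR-146a-deficient, and both genotypes carried the 2D2 transgene. The allele, the age of the mice and the cells in which miR-146a is missing are not given in the sources used here. Each sample is labelled as a biological replicate, with nothing on whether replicates were separate mice or cultures, so p-values measure the spread between these arrays, which may be technical.

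The oxidase is an enzyme complex that moves electrons from NADPH across a membrane onto oxygen and so makes superoxide. Its catalytic core is flavocytochrome b558, a pair of membrane proteins encoded by Cybb (gp91phox, also called NOX2) and Cyba (p22phox). On activation the cytosolic subunits, among them p47phox from Ncf1 and p40phox from Ncf4, join the core together with a Rac GTPase. The complex is best known from the respiratory burst of neutrophils and macrophages, and B cells and dendritic cells carry it as well.

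The question asked of the arrays was whether transcripts of this complex differ when miR-146a is absent. Of the 5 genes, Cybb rose in the deficient cells, from a mean signal of 55.2 ± 2.2 to 319 ± 48 (SD, n = 2) on its brightest probe set, a 5.77-fold difference of the means. The wildtype signals are close to the medians of those arrays, 57.7 and 50.2, and no detection call was used, so the wildtype level was not shown to be above background and the fold is one of signals only. The remaining genes did not pass the test: Cyba was 1.19-fold higher, Ncf1 1.07-fold higher, and Ncf4 and Rac2 were 1.11-fold and 1.07-fold lower. Of the 5 genes, 1 was called, while 0.179% of the 12821 genes tested were called in either direction. Changes here are log2 differences ± SE, deficient minus wildtype, from limma's moderated test on log2(signal + 14.7), which understates the change of dim genes, and adjusted p-values are Benjamini-Hochberg values with a threshold of 0.05.

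The molecule that the labels give as missing is shown first, because the genotypes are named by it. Its main arm, with the seed (bases 2 to 8) in capitals, lies at chr11:43374435-43374456 on the minus strand (RefSeq, GRCm38.p6).
miR-146a-5p: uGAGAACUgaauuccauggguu
The number of probe sets named for its gene, Mir146, among those used here was 0, so its own transcript could not serve as a check of the genotype labels.

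Promoters are shown for the subunits of the membrane core, since these partners form one protein pair and had unlike changes on the arrays. Of the 5 genes, 3 (Cybb, Cyba and Ncf1) matched the RefSeq promoter table (GRCm38.p6), and Ncf4 and Rac2 had no entry. Each window runs from 250 bases before to 50 bases after the listed start site, 5′ to 3′ on the gene's strand. Capitals mark the PU.1 box and the CCAAT box, motifs of factors known to act at the Cybb promoter. The PU.1 box was searched as GAGGAA, which reads as TTCCTC where it lies on the opposite strand. The CCAAT box was searched as these 5 letters, likewise read as ATTGG where it lies on the opposite strand. The motifs share no base with one another in these windows. The Cybb window is chrX:9469275-9469574 and the Cyba window chr8:122432891-122433190, both on the minus strand.
Cybb: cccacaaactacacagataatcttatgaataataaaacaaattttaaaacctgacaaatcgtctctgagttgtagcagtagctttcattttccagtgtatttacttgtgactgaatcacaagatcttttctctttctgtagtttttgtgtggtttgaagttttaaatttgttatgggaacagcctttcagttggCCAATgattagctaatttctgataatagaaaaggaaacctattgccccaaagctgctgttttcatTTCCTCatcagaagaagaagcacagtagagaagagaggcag
Cyba: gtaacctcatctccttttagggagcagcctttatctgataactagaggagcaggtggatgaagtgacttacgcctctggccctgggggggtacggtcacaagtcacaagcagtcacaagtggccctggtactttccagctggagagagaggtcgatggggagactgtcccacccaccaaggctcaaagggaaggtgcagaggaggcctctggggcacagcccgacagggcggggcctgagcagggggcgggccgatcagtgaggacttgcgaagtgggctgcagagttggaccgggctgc
The Cybb window held 1 CCAAT box, starting 56 bases before the listed start site, and 1 PU.1 box on the opposite strand, starting at base 10 after it. The Cyba and Ncf1 windows held 0 of either. Over all 32851 promoter windows of 300 bases in the table, 28.3% held the PU.1 letters and 37.4% the CCAAT letters, so either is common. The listed Cybb start site lies inside the RefSeq span of the gene, chrX:9435252-9487766. A match of letters is a description of the window and was not tied to any measured binding.

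Cybb was measured by 3 probe sets, and all lay higher in the deficient arrays. On the brightest, 1436778_at, wildtype replicates 1 and 2 gave signals of 53.6 and 56.8, and deficient replicates 1 and 2 gave 285 and 352. The wildtype arrays differed by little, and both deficient arrays stood far above them. In the fit over genes the change was 2.25 ± 0.23 (95% interval 1.73 to 2.76; limma, adjusted p = 0.00840), higher in 2 of 2 deficient arrays, and by size it ranked 5th of the 12821 genes. In the fit over all 27022 probe sets past the filter it was 2.25 ± 0.22 (limma, adjusted p = 0.00778), where 0.167% of probe sets were called.

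The other Cybb probe sets read dimmer and smaller changes. Probe set 1436779_at, designed from the same source sequence as the brightest, gave 48.7 and 35.7 on the wildtype arrays, against 86.2 and 84.9 on the deficient ones. Its deficient arrays lay close together and above both wildtype arrays, a change of 0.83 ± 0.30 (95% interval 0.14 to 1.52; limma, adjusted p = 0.838). Probe set 1422978_at, from another sequence, gave 35.6 and 29.2 against 53.9 and 76.5. Here too the genotypes did not overlap, but the deficient arrays were further apart, and the change was 0.75 ± 0.34 (95% interval -0.03 to 1.54; limma, adjusted p = 0.912). As ratios of mean signals, without the added constant, these were 2.03-fold and 2.01-fold higher, against 5.77-fold on the brightest. The wildtype signals of these probe sets lie near 29.9, the signal at which the filter on dim probe sets was set. The call of Cybb and the large size of its rise therefore rest on 1 of its 3 probe sets. With the mean of its probe sets the change was 1.27 ± 0.23 and missed the threshold (limma, adjusted p = 0.180).

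Cyba, whose protein p22phox binds gp91phox and docks p47phox, was read by a single probe set at high signal. Wildtype replicates gave 9283 and 9757, and deficient replicates 11338 and 11392. The groups did not overlap, and the deficient arrays were the closer pair. The change was 0.26 ± 0.08 (95% interval 0.06 to 0.45) and did not pass (limma, adjusted p = 0.683). Arrays of the genotypes did not overlap for 2 of the 5 genes, Cybb and Cyba, both higher, where 15.9% of all tested genes lay higher without overlap. Over probe sets it was 4 of 10, of which 3 are of Cybb, against 14.2%.

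**Figure D1:**
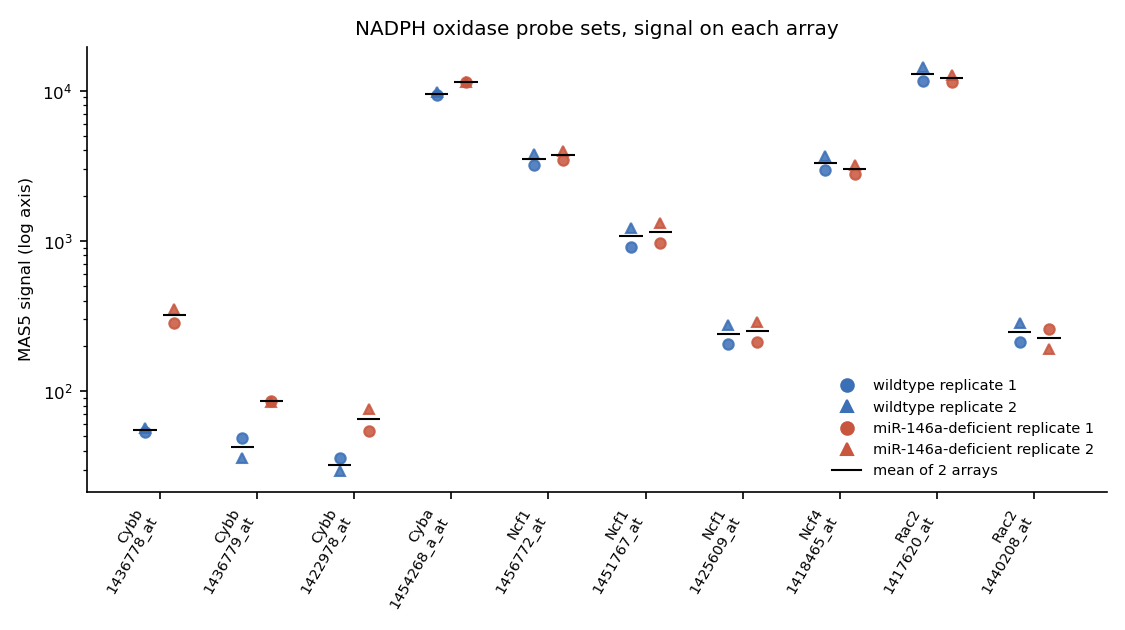
Signal (MAS5, log axis) of each of the 10 probe sets on each of the 4 arrays, wildtype in blue and miR-146a-deficient in red, with replicate 1 as circles, replicate 2 as triangles and a bar at the mean of 2 arrays. On Cybb 1436778_at the deficient arrays, at 285 and 352, stand apart from the wildtype arrays at 53.6 and 56.8, while symbols of Ncf1, Ncf4 and Rac2 overlap between genotypes.

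Ncf1 encodes p47phox, the organizer whose phosphorylation starts assembly. Its brightest probe set, 1456772_at, gave 3208 and 3774 in wildtype and 3465 and 3987 in deficient arrays. Values of the genotypes were interleaved, and the difference of 0.09 ± 0.12 (95% interval -0.17 to 0.36) did not pass (limma, adjusted p = 0.982). The further Ncf1 probe sets, 1451767_at and 1425609_at, which share a source sequence, gave 0.09 ± 0.18 and 0.05 ± 0.22. All 3 probe sets of this gene thus had small positive differences with intervals that reach from below to above 0. At the upper ends of their intervals, the 3 probe sets would allow an Ncf1 ratio of 1.29, 1.41 and 1.46 on the scale of the fit.

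Ncf4 encodes p40phox, which binds a membrane lipid of phagosomes and stabilizes the assembled enzyme. Its single probe set, 1418465_at, gave 2950 and 3687 in wildtype and 2771 and 3209 in deficient arrays. The lowest value was a deficient array and the highest a wildtype array, with the remaining pair in between. The difference of -0.14 ± 0.13 (95% interval -0.44 to 0.15) did not pass (limma, adjusted p = 0.975).

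Rac2 is the Rac GTPase of blood cells, which activates the oxidase and also acts on actin in T cells. Probe set 1417620_at gave 11530 and 14310 in wildtype and 11481 and 12725 in deficient arrays, and 1440208_at gave 212 and 283 against 261 and 192. The genotypes overlapped on both probe sets. The differences were -0.09 ± 0.12 (95% interval -0.35 to 0.18; limma over genes, adjusted p = 0.984) and -0.12 ± 0.22 (95% interval -0.63 to 0.38; limma over probe sets, adjusted p = 0.984). Neither interval reaches the change read for Cybb on its brightest probe set.

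**Figure D2:**
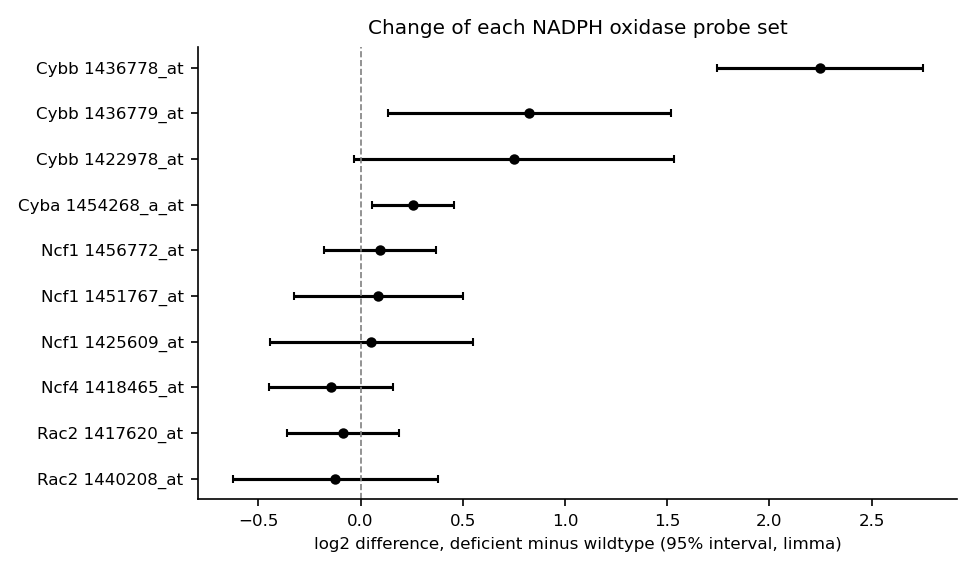
Log2 difference (deficient minus wildtype) of each of the 10 probe sets with its 95% interval from limma over 4 arrays; the dashed line marks 0. The intervals of Cybb 1436778_at (1.74 to 2.75), Cybb 1436779_at and Cyba lie above 0, and only the first passed after adjustment over all probe sets.

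Set against the other members within each array, the brightest Cybb probe set moved apart from all of them. The log2 value of Cybb minus that of Cyba was -7.09 on both wildtype arrays, against -5.24 and -4.96 on the deficient ones. The shift of Cybb relative to another member, deficient minus wildtype, was 1.99 for Cyba, 2.15 for Ncf1, 2.39 for Ncf4 and 2.33 for Rac2. These shifts share the Cybb values and were not tested. The median change of the 5 members was 0.09, beside -0.01 over all tested genes.

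The members also differed between replicates of the same genotype. In 7 of the 10 probe sets replicate 2 was above replicate 1 in both genotypes, as it was for 23.3% of all probe sets tested. All probe sets of Ncf1 and Ncf4 were among the 7, with replicate 2 from 1.15 to 1.35 times replicate 1. For the brighter Rac2 probe set the ratio was 1.24 in wildtype and 1.11 in deficient arrays. The probe sets of a gene share their RNA, so these are not independent counts.

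Among all tested genes, the ones with a pattern nearest to that of Cybb over the 4 arrays were Blnk, Ms4a1 and Tlr7. Likeness was the Euclidean distance between log2 values centred on each gene's mean, which was 0.14, 0.27 and 0.42 for these genes. Blnk, a linker protein downstream of the B cell receptor, read 103 and 112 in the wildtype and 457 and 578 in the deficient arrays. Ms4a1, which encodes CD20 of B cells, read 167 and 228 against 838 and 1150. Tlr7, an endosomal receptor for single-stranded RNA, read 9.85 ± 7.09 and 86.6 ± 11.7 (SD, n = 2), with a change of 2.07 ± 0.42 from a wildtype level under the filter that did not pass (limma, adjusted p = 0.196). Only 1 tested gene, Blnk, lay within a distance of 0.25 of Cybb, whereas from 1958 genes (Ncf4) to 3169 genes (Ncf1) lay that near to another member. The distance was not scaled for the size of a change. Few genes can therefore lie near Cybb, which ranked 5th by size, and those that do also have large changes. The nearest to Cyba were Necap2, Clasrp and Orai3, to Ncf1 Npc1, Tmem107 and Slc25a28, to Ncf4 H2ax, Tnik and Foxp4, and to Rac2 Trpc4ap, Inpp5k and Rapgef2, all at distances from 0.01 to 0.03. With so many genes near those members, these names describe patterns of small change that many genes share.

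Genes that work with the oxidase were read next. Of 15 partners and other NADPH oxidases listed, 10 were named on the array, 7 were tested, 0 rose and 0 fell, and their median change was -0.05. Hvcn1, the voltage-gated proton channel that balances the charge moved by the oxidase, read 478 and 594 in the wildtype and 720 and 765 in the deficient arrays. Its groups did not overlap, with a change of 0.47 ± 0.15 (limma, adjusted p = 0.642). Cybc1, a chaperone needed for the gp91phox-p22phox pair, differed by 0.12 ± 0.12, and Nrros, which promotes the breakdown of gp91phox, by -0.22 ± 0.16. Rac1, the ubiquitous relative of Rac2, differed by 0.04 ± 0.09 and Rap1a, a small GTPase found with the cytochrome, by -0.05 ± 0.08. Duoxa1, a maturation factor of the dual oxidases, was dim at 46.6 ± 5.3 and 31.6 ± 16.9. Nox4, Noxo1 and Duoxa2 lay below the filter on dim genes.

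No Rac regulator or effector passed the test. Of 26 listed, 23 were named and tested, 0 rose and 0 fell, and the median change was 0.00. The smallest p-values belonged to Tiam1, a Rac exchange factor, at -0.44 ± 0.20 (limma, adjusted p = 0.942), Arhgap15, a Rac GTPase-activating protein, at -0.22 ± 0.12, and Abr, which also turns Rac off, at -0.35 ± 0.22. Dock2, the main Rac exchange factor of lymphocytes, read 2102 ± 105 and 2104 ± 162.

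Kinases of the cytosolic subunits and their lipid signals numbered 16 on the list, of which 14 were tested, 0 rose and 0 fell, with a median of -0.05. Btk, the tyrosine kinase of B cells and myeloid cells, read 71.3 and 18.6 in the wildtype and 156 and 157 in the deficient arrays. The deficient arrays were alike and the wildtype arrays far apart, and the change of 1.67 ± 0.43 did not pass (limma, adjusted p = 0.415). Plcg2, a phospholipase downstream of Btk, differed by 0.42 ± 0.14 (adjusted p = 0.741) and Pik3cd, the lymphocyte PI3-kinase subunit, by -0.35 ± 0.13 (adjusted p = 0.794), both by limma.

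Transcription factors known to act at the Cybb promoter gave 11 tested of 13 listed, 0 that rose, 0 that fell and a median of -0.09. Spi1, which encodes PU.1, was dim on all arrays, at 61.4 and 50.7 in the wildtype and 63.9 and 20.6 in the deficient arrays, a difference of -0.42 ± 0.45. Irf8, a partner of PU.1, read 6146 and 6439 against 7038 and 7311. The groups did not overlap, with a change of 0.19 ± 0.09 (limma, adjusted p = 0.951). Satb1, a repressor of Cybb in other cells, differed by -0.15 ± 0.08 and Irf1, an interferon-induced activator, by 0.13 ± 0.11.

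Genes that remove superoxide and peroxide were measured too. Of 25 listed, 21 were tested, 0 rose and 0 fell, and the median change was 0.06. Gclc, the catalytic subunit of the first enzyme of glutathione synthesis, read 823 and 939 in the wildtype and 621 and 561 in the deficient arrays. Both deficient arrays were lower, and the change of -0.56 ± 0.13 did not pass (limma, adjusted p = 0.332). Gpx4 and Gpx1, glutathione peroxidases, differed by 0.22 ± 0.09 and 0.18 ± 0.09 without passing. In all 5 lists, no gene reached the threshold in limma's test over all genes. Only 0.179% of the 12821 genes did, so lists of this size would rarely hold a called gene. Of the 12821 genes, 675 had an unadjusted limma p under 0.05. In the lists these were Hvcn1, Btk, Plcg2, Pik3cd, Prkcq, Mapk14, Gclc and Gpx4.

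**Figure D3:**
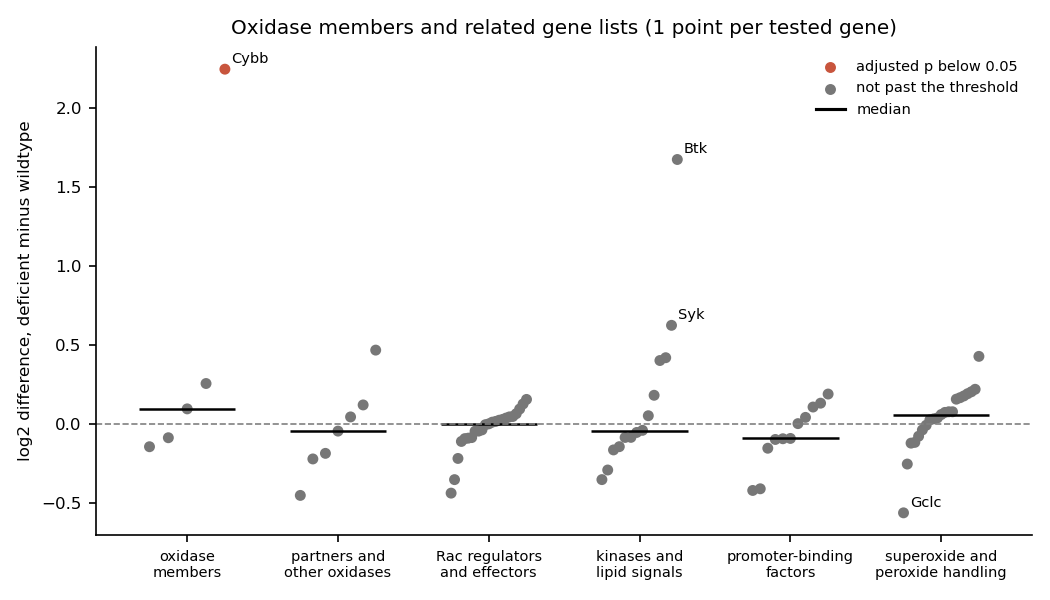
Log2 difference (deficient minus wildtype) of each tested gene among the 5 oxidase members and 5 related lists, 1 point per gene, with a bar at the median of each list and red for an adjusted p below 0.05. Cybb at 2.25 is the single red point, and the medians of all lists lie between -0.092 and 0.095.

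Since Cybb is a gene of B cells and myeloid cells, markers of those cells are given beside it. Of the B cell list (16 genes, 15 named, 13 tested), all 13 tested members lay higher in the deficient arrays without overlap, 3 of them (Blnk, Ms4a1 and Cd22) past the threshold, with a median of 1.04. Over all tested genes, 15.9% lay higher without overlap and 0.179% were called. Summed over the 15 genes the signal was 5342 and 7594 in the wildtype and 14456 and 14982 in the deficient arrays. The brightest were Ighm, Cd79b and Fcer2a, with changes of 1.04 ± 0.16, 1.55 ± 0.26 and 1.71 ± 0.29. Pax5 and Fcrla lay below the filter and did not share the rise. Pax5 was lower, at 68.9 and 23.9 in the wildtype and 11.3 and 21.9 in the deficient arrays. Fcrla overlapped, with means of 28.4 in the wildtype and 25.8 in the deficient arrays. The filter used the mean over both genotypes, so a dim marker could pass through its deficient arrays. Cr2 passed with a wildtype mean of 22.7, under the filter signal of 29.9, and a deficient mean of 43.3. None of the markers was at 0.

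Of the dendritic cell list (14 genes, 13 named, 9 tested), 6 tested members lay higher and 3 lower, and Ccl22 and Ly86 rose, with a median of 0.18. Over all tested genes 0.179% were called. The 3 lower were Batf3, Zbtb46 (-0.04 ± 0.25) and Cd209a (-0.29 ± 0.40). The summed signal of this list was 9701 and 10849 against 12286 and 13208. The brightest were Batf3, Cd83 and Ccl22, at -0.13 ± 0.14, 0.18 ± 0.14 and 1.89 ± 0.17. Their mean signals were 5156, 3639 and 484 in the wildtype and 4716, 4138 and 1839 in the deficient arrays. The sum therefore mainly reads these genes and says little of the rest of the list. Flt3, Itgax, Siglech and Xcr1 lay below the filter. Xcr1 read 44.9 ± 6.8 in the wildtype and 6.18 ± 1.68 in the deficient arrays, and the rest of these overlapped between genotypes. Of the macrophage and monocyte list (14 genes, 12 named, 8 tested), 3 lay higher and 5 lower, 0 passed, and the sums overlapped, at 788 and 638 in the wildtype and 598 and 693 in the deficient arrays. The brightest were Cd68, Csf1r and Fcgr1, at -0.16 ± 0.22, 0.21 ± 0.26 and -0.18 ± 0.29.

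Neutrophil markers were near background, with 1 of 12 named genes (Ngp) past the filter and sums of 283 and 218 against 236 and 221. S100a8 and S100a9, the most abundant neutrophil transcripts, read 8.62 ± 2.50 and 16.1 ± 14.6 in the wildtype and 2.67 ± 0.23 and 3.22 ± 1.16 in the deficient arrays. The highest means on that list were those of Ngp, Mmp9 and Mpo. CD8 and NK cell markers had 4 tested members, all higher, 0 past the threshold, and a median of 0.75, with sums of 1250 and 1377 against 1542 and 2213. Without overlap, 3 of the 4 lay higher, against 15.9% of all tested genes. Ncr1, Klra8 and Gzmk of this list lay below the filter. The brightest were Cd8b1, Eomes and Klrk1, at 0.04 ± 0.16, 0.87 ± 0.27 and 1.10 ± 0.23. The label of T cells was met by T cell markers at high signal: all 12 named were tested, 0 passed, 7 lay higher and 5 lower, and Cd3d read from 16065 to 17736 over the 4 arrays. Trat1 and Cd2 were the next brightest, at -0.61 ± 0.13 and 0.05 ± 0.13, and Cd4 read 630 ± 36 and 594 ± 186. The part of other cells in the Cybb difference was not tested, and in bulk RNA more cells of a type and more RNA per cell cannot be told apart.

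**Figure D4:**
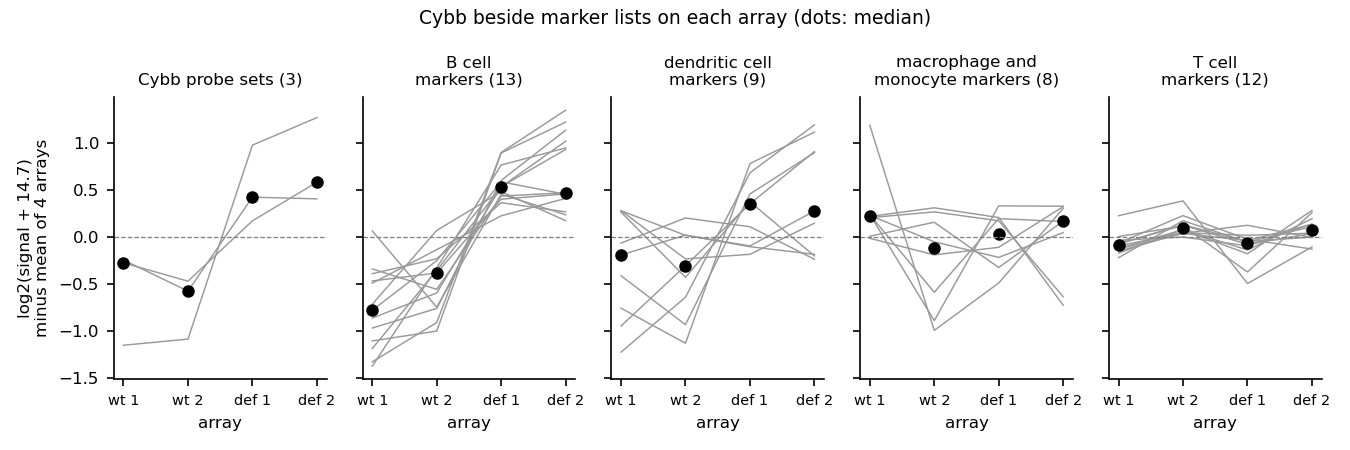
Log2(signal + 14.7) minus its mean over the 4 arrays for the 3 Cybb probe sets and for the tested markers of 4 cell types, on wildtype (wt) and miR-146a-deficient (def) replicates 1 and 2; a line joins the values of 1 gene or probe set and dots are medians. The Cybb and B cell lines lie higher on both deficient arrays, the dendritic cell lines split, and most T cell lines stay near 0.

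All arrays had a trimmed mean signal of 500, with medians from 48.7 to 57.7, and with 2 arrays per genotype the precision is limited by their number. The ratio of 3' to 5' control signal, a sign of RNA quality, was lower in the deficient arrays for the transferrin receptor, at 1.92 and 2.23 against 2.40 and 2.74. For beta-actin it was 1.14 and 1.25 against 1.17 and 1.30, and for Gapdh 0.746 and 0.778 against 0.778 and 0.808. The part of RNA quality in the Cybb difference was not tested.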

How the data were processed

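The authors deposited 1 intensity (MAS5 signal, linear scale) per probe set of the Mouse Genome 430 2.0 array, made from 100 ng of total RNA per the labels. MAS5 and the Transcriptome Analysis Console are named, without versions, in the submitters' processing notes. Each array's 2% trimmed mean is 500, so the deposited values were already scaled per array. Detection calls were not used here. Of 45101 probe sets, 64 controls were left out; 34945 of the others have 1 symbol, 932 several and 9160 none. Signals were taken as log2(signal + 14.7), the added constant being the 25th percentile. Each of 18193 genes was represented by its brightest probe set, and genes or probe sets under the 40th percentile of mean log2 (5.48) were not tested. All 10 member probe sets passed. Both fits used limma 3.58.1 in R 4.3.3 (lmFit, eBayes with intensity trend, two-sided, 8.60 and 8.39 degrees of freedom), without a replicate block, and were tested on simulated data. Figures used matplotlib 3.10.9.

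Members and gene lists were chosen with earlier results of these data known. Named genes were all members, of each related list the 3 smallest p-values and set partners, of each marker list the 3 brightest, and the 3 genes nearest to each member; others were named after their values were seen. Alternatives covered the constant, the filter, 2 scalings, the variance prior, the block, each array left out and the mean of probe sets.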

Additional observations from a re-analysis of the deposited data

How the results depend on the processing

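The call of Cybb, the 1 member called in either fit, was lost without a filter (0 member genes and 0 member probe sets called; 2.25, adjusted p = 0.148 over genes and 0.0836 over probe sets), with limma's variance prior without a trend (0 and 0; adjusted p = 0.414 and 0.510) and, over genes, with the mean of probe sets (0 member genes). Leaving out 1 array, where the lone array is assumed to vary like the other group, gave 1 member gene each time, with a Cybb change from 2.10 to 2.39. Over probe sets it gave 0 to 1, the 0 without miR-146a-deficient replicate 2 (2.10, adjusted p = 0.0890). Over the 13 alternatives the Cybb change ran from 1.27 to 2.50 and its adjusted p over genes from 1.9e-05 to 0.414. Cyba kept its direction and missed the threshold in all 13.

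Small differences turned sign without single arrays, none past the threshold. Leaving out 1 array gave -0.30 to 0.016 for Ncf4, -0.24 to 0.068 for Rac2 1417620_at and -0.33 to 0.084 for 1440208_at. For Ncf1 it gave -0.022 to 0.21 on 1456772_at, -0.12 to 0.30 on 1451767_at and -0.15 to 0.25 on 1425609_at. The sign turned without wildtype replicate 2 for Ncf4 and Rac2, without miR-146a-deficient replicate 2 for Ncf1 and Rac2 1440208_at, and without wildtype replicate 1 for Ncf1.

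Over all genes, 23 were called (22 higher), against 2 without a filter (1 higher), 51 with median centring (50 higher), 0 without a trend (769 with an unadjusted p under 0.05), and 27 to 99 leaving out 1 array. The 99, without wildtype replicate 1, were 66 higher and 33 lower; the 95 without wildtype replicate 2 were 81 and 14; and 51 were called without miR-146a-deficient replicate 1. With the replicate number as a block, 14 genes were called; Cybb passed (2.25, adjusted p = 0.0356). The numbers are not said to pair samples, and the deviations of same-numbered arrays correlated across probe sets with r = 0.04.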
